A study of Arabidopsis thaliana with 6 samples.

Results

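The 10 genes described here encode enzymes of membrane lipid remodeling in *Arabidopsis* leaves, 10 of the 22183 genes with reads in the deposited tables. They were named as a list of loci, *SQD1*, *SQD2*, *MGD2*, *MGD3*, *DGD1*, *DGD2*, *PLDZ2*, *NPC4*, *NPC5* and *SRG3*, and they were selected on their high reads in the library of INA-treated *hac1/5* against INA-treated wild type. Values of that contrast are therefore given as a description and support nothing. The libraries are those of INA-treated *hac1/5* (*hac1-2 hac5-2* double mutant, *hac1/5*+INA), INA-treated *npr1-1* (*npr1-1*+INA), INA-treated wild type (Col+INA) and water-treated wild type (Col). All plants were in the Columbia background, were 4 weeks old, grew in short days, and were sprayed with 300 µM INA, a synthetic analog of salicylic acid (SA), or with water for 12 h before the leaves were taken. Each condition was 1 library made from the pooled RNA of independent experiments, so no difference has a replicate check. The *npr1-1* allele is a missense mutation, and *NPR1* had 355 reads in that library. Libraries of water-treated mutants were not analysed here, and a difference of genotype cannot be told apart from a difference in the response to INA.

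Chloroplast membranes of plants are built mostly of galactolipids and of a sulfolipid, which hold no phosphorus, whereas the other membranes are built mostly of phospholipids. When phosphate is scarce, plants break down phospholipids, recover the phosphate, and put digalactosyldiacylglycerol and sulfolipid in their place. Many genes of this exchange are known to be activated by the transcription factor PHR1, which binds a short palindromic DNA element called P1BS. *SQD1* and *SQD2* make the sulfolipid, *MGD2*, *MGD3*, *DGD1* and *DGD2* make galactolipids, *PLDZ2*, *NPC4* and *NPC5* cleave phospholipids, and *SRG3* (also *GDPD1*) encodes a glycerophosphodiester phosphodiesterase, which acts on the products of phospholipid deacylation.

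Since the P1BS element is known from many genes of this exchange, its letters, GNATATNC, were searched in the bases before the start of each gene model. The palindrome reads alike on both strands. Start positions were those of the deposited tables (TAIR10 by the labels), and the bases came from the RefSeq copy of TAIR10.1, in which 99.97% of 21991 matched genes overlapped the coordinates of the tables. Within 300 bases upstream, 7 of the 10 genes held at least 1 such word, against 6% of 22039 genes. Within 1000 bases 8 of the 10 did, against 19.9% of all genes. The *DGD2* and *MGD3* windows of 1000 bases held none.
The stretch before *SRG3* is shown since this gene had the largest ratio of *hac1/5*+INA to Col+INA among the 7 genes with enough reads, and it carried 4 words, set in capitals as in all sequences here.
*SRG3*, from 330 to 31 bases upstream (chr3:350041-350340, reverse strand): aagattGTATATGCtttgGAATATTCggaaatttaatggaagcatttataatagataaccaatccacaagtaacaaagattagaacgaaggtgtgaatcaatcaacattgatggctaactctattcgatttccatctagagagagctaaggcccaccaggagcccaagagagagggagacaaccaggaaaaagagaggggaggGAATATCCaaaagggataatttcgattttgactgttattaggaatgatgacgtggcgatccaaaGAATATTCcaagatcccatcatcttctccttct
The stretches before *PLDZ2*, the gene with the next largest ratio among these 7, carried 3 words close together and a further one nearer to the start.
*PLDZ2*, from 660 to 561 bases upstream (chr3:1634540-1634639, forward strand): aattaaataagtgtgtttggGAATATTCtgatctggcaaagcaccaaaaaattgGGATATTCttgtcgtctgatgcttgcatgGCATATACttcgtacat
*PLDZ2*, from 200 to 171 bases upstream (chr3:1635000-1635029, forward strand): gatgtaaccaagttGCATATACacggcagg
For the other genes with a word within 300 bases, each such word is shown in 30 bases, so that the words can be compared.
*SQD1* (chr4:15935376-15935405, forward strand): ggaataagtaaGAATATGCtttgggcatat
*SQD2*, farther word (chr5:90055-90084, reverse strand): gataaattttaGCATATGCtaaaacgagta
*SQD2*, nearer word (chr5:90003-90032, reverse strand): cctcacaaagaGGATATACctctctttcgt
*MGD2*, farther word (chr5:6896438-6896467, forward strand): tatatactactGAATATTCttttgttaata
*MGD2*, nearer word (chr5:6896489-6896518, forward strand): tcgaggaccttGAATATTCgaatcttttca
*DGD1* (chr3:3684813-3684842, reverse strand): cttcgattccaGCATATTCctaagttaaat
*NPC4* (chr3:845297-845326, reverse strand): cttgaaaaagtGAATATTCttgacacagac
Both of these *MGD2* words and the *NPC4* word read GAATATTC, as did 2 of the 4 words of *SRG3*. The ratio of *hac1/5*+INA to Col+INA only set which stretches are shown at length. Whether the number of words goes with this ratio was not tested. Of the genes without a word in 1000 bases, *DGD2* had a ratio of 1.05. The other, *MGD3*, had few reads and was at least 3.41-fold higher in *hac1/5*+INA. *NPC4* held words, but its reads were too few to tell its ratio from 1.

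**Figure D1:**
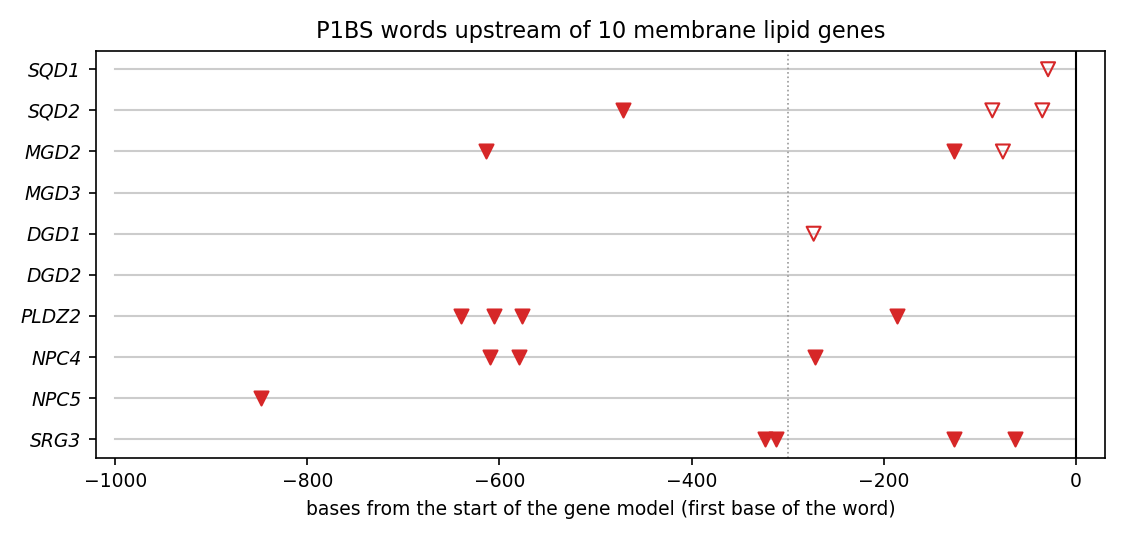
Positions of the word GNATATNC in the 1000 bases before the gene model's start (x axis, in bases; the dotted line lies 300 bases upstream), with 1 row per gene. Filled triangles lie upstream of the RefSeq transcript and open ones inside it; *MGD3* and *DGD2* have none, and *SRG3* and *PLDZ2* have 4 each.

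Where a gene starts changes this count. RefSeq places the start of *SQD2* 131 bases, of *MGD2* 113 bases, of *SQD1* 43 bases and of *DGD1* 313 bases farther upstream than the tables do. The words nearest to the start of these 4 genes then lie inside the transcript. With RefSeq starts, 4 of the 10 genes had a word within 300 bases, against 6.56% of 21991 genes. Within 1000 bases of RefSeq starts 6 of the 10 did, against 20.4%. The TGACG core, bound by TGA factors, the partners of NPR1, was searched on both strands as well. It stood within 300 bases of 5 of the 10 genes, against 24.2% of all genes, and with RefSeq starts of 4 of the 10, against 21.8%. Within 1000 bases 8 of the 10 held it, against 55.7%, and with RefSeq starts 7 of the 10, against 55%. These windows may reach into neighbouring genes, and a match of letters is no measurement of binding.

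Reads on gene models summed to between 6698569 (*npr1-1*+INA) and 7146973 (Col+INA) per library. Levels are given as reads and as RPKM, the reads per kb of gene model scaled to all reads on gene models in the library, and levels of different genes are compared only as RPKM. Ratios between libraries have 95% confidence intervals (CI; Clopper-Pearson) that cover counting error only, and no p-value is given. A gene was called higher or lower when its RPKM differed at least 2-fold and the reads of both libraries averaged at least 10. *HAC5* had 2 reads in *hac1/5*+INA, 248 in *npr1-1*+INA, 122 in Col+INA and 272 in Col, whereas *HAC1*, with 25, 63, 28 and 69 reads in the same order, does not check the *hac1/5* label. Of 4 root markers, *PYK10* had 0, 20, 4 and 16 reads and *COBL9* at most 1, and the other 2 were not analysed here. Of 4 leaf markers, *RBCS1A* and *RCA* differed less than 2-fold between *hac1/5*+INA and Col+INA, but *LHCB1.1* had 51730 and 17165 reads and *LHCB1.3* 141150 and 51396. The part of whatever moved these light-harvesting genes in the results below was not tested.

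*SQD1* and *SQD2* were the most abundant of the 10 genes in every library. *SQD1* (AT4G33030, chromosome 4, 15935416 to 15937807) encodes UDP-sulfoquinovose synthase, which makes the sulfolipid head group. It had 5384 reads (421 RPKM) in *hac1/5*+INA, 1966 (160 RPKM) in *npr1-1*+INA, 1810 (138 RPKM) in Col+INA and 3677 (289 RPKM) in Col. Thus *npr1-1*+INA and Col+INA stood below Col, and *hac1/5*+INA stood above it. *SQD1* was 3.06-fold higher in *hac1/5*+INA than in Col+INA (CI 2.90 to 3.23), and its ratio to Col was 1.46 (CI 1.40 to 1.52).
*SQD2* (AT5G01220, chromosome 5, 86585 to 89986) encodes the sulfolipid synthase, which transfers that head group to diacylglycerol. Its reads were 5339 (393 RPKM) in *hac1/5*+INA, 1016 (77.5 RPKM) in *npr1-1*+INA, 1032 (73.8 RPKM) in Col+INA and 2600 (192 RPKM) in Col. By RPKM, the order of the libraries was that of *SQD1*, with a wider spread. *SQD2* was 5.32-fold higher in *hac1/5*+INA than in Col+INA (CI 4.98 to 5.70). The reads of *npr1-1*+INA and Col+INA could not be told apart by counting error (ratio 1.05, CI 0.96 to 1.15).

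The galactolipid genes did not move together. *MGD2* (AT5G20410, chromosome 5, 6896576 to 6898783), a monogalactosyldiacylglycerol synthase of the type used under phosphate shortage, had 687 reads (55.0 RPKM) in *hac1/5*+INA, 90 (7.47 RPKM) in *npr1-1*+INA, 125 (9.73 RPKM) in Col+INA and 318 (25.6 RPKM) in Col. It followed the pattern of *SQD2*, being 5.66-fold higher in *hac1/5*+INA than in Col+INA (CI 4.67 to 6.90). Its relative *MGD3* (AT2G11810, chromosome 2, 4743322 to 4746780) had 14 reads in *hac1/5*+INA, 0 in *npr1-1*+INA, 0 in Col+INA and 1 in Col. A count of 0 allows up to 3 reads, so *MGD3* was at least 4.80-fold higher in *hac1/5*+INA than in Col+INA if its 14 reads are taken as exact. With their counting error included, the lower limit of the CI was 3.41-fold.
*DGD1* (AT3G11670, chromosome 3, 3680893 to 3684558) encodes the main digalactosyldiacylglycerol synthase of the chloroplast envelope. It had 1103 reads (59.1 RPKM) in *hac1/5*+INA, 930 (51.7 RPKM) in *npr1-1*+INA, 762 (39.7 RPKM) in Col+INA and 1412 (75.9 RPKM) in Col. All 3 INA-treated libraries lay below Col, *hac1/5*+INA included, and *DGD1* was 1.49-fold higher in *hac1/5*+INA than in Col+INA (CI 1.36 to 1.64).
*DGD2* (AT4G00550, chromosome 4, 237967 to 240500), the digalactosyldiacylglycerol synthase that adds to *DGD1* under phosphate shortage, had 317 reads (24.1 RPKM) in *hac1/5*+INA, 162 (12.8 RPKM) in *npr1-1*+INA, 312 (23.1 RPKM) in Col+INA and 160 (12.2 RPKM) in Col. Here the libraries fell into pairs, *hac1/5*+INA with Col+INA and *npr1-1*+INA with Col. The ratio of *hac1/5*+INA to Col+INA was 1.05 (CI 0.89 to 1.23), and that of *npr1-1*+INA to Col was 1.05 (CI 0.84 to 1.31).

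**Figure D2:**
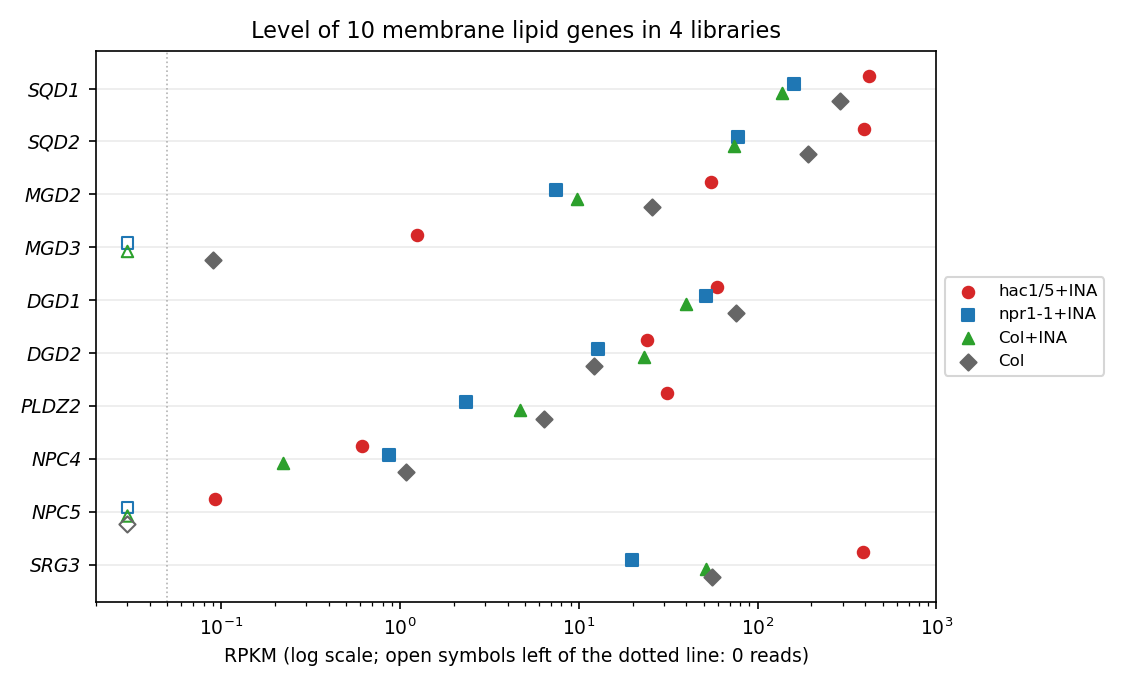
Level of each of the 10 genes (rows) in the 4 libraries, in RPKM on a log axis; open symbols left of the dotted line mark 0 reads. *hac1/5*+INA is the highest library for *SQD1*, *SQD2*, *MGD2*, *MGD3*, *PLDZ2* and *SRG3*, and by a small margin for *DGD2*, but not for *DGD1* or *NPC4*; *NPC5* has 1 read in all.

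Among the phospholipid-cleaving enzymes, *PLDZ2* (AT3G05630, chromosome 3, 1635200 to 1640348), a phospholipase D that releases phosphatidic acid, had 755 reads (31.02 RPKM) in *hac1/5*+INA, 55 (2.34 RPKM) in *npr1-1*+INA, 117 (4.67 RPKM) in Col+INA and 155 (6.39 RPKM) in Col. The *hac1/5*+INA library stood far above the other libraries, with *npr1-1*+INA lowest. *PLDZ2* was 6.64-fold higher in *hac1/5*+INA than in Col+INA (CI 5.46 to 8.14) and 4.85-fold higher than in Col (CI 4.08 to 5.81).
*SRG3* (AT3G02040, chromosome 3, 348167 to 350010) had 4139 reads (391 RPKM) in *hac1/5*+INA, 204 (19.97 RPKM) in *npr1-1*+INA, 559 (51.3 RPKM) in Col+INA and 587 (55.6 RPKM) in Col. It showed the widest range of the 7 genes with more than a few reads, and both wild-type libraries were close to each other. *SRG3* was 7.62-fold higher in *hac1/5*+INA than in Col+INA (CI 6.97 to 8.34) and 7.03-fold higher than in Col (CI 6.44 to 7.67).
The neighbouring genes *NPC4* (AT3G03530, chromosome 3, 842499 to 845043) and *NPC5* (AT3G03540, chromosome 3, 846350 to 848297), which encode non-specific phospholipases C, lie 1306 bases apart on the same strand and were barely detected. *NPC4* had 8 reads in *hac1/5*+INA, 11 in *npr1-1*+INA, 3 in Col+INA and 14 in Col. Its ratio of *hac1/5*+INA to Col+INA was 2.74, with a CI of 0.66 to 16.1 that includes no difference. *NPC5* had 1 read in *hac1/5*+INA and 0 in the other libraries, so no ratio is given. The longest identical run between both loci was 43 bases, and how reads that fit several places were counted is not given in the sources used here.

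With 2-fold as the limit, 5 of the 10 genes, *SQD1*, *SQD2*, *MGD2*, *PLDZ2* and *SRG3*, were higher in *hac1/5*+INA than in Col+INA. Of 14333 genes with enough reads, 7.79% were, but nothing can be read from the difference, because this contrast chose the genes. *DGD1* and *DGD2* stayed within 2-fold, and *MGD3*, *NPC4* and *NPC5* averaged under 10 reads. The median log2 ratio of the 7 genes with enough reads was 2.41, against 0.13 over all genes. The comparison of *hac1/5*+INA with Col shares the *hac1/5*+INA library with that contrast, so it too is a description. In it *SQD2*, *MGD2*, *PLDZ2* and *SRG3* were at least 2-fold higher in *hac1/5*+INA, where 25.1% of 14338 genes were, and nothing is read from this difference either. *SQD2* (log2 ratio 1.03) and *MGD2* (1.11) passed this limit narrowly, and with TMM library factors, which lower every log2 ratio of *hac1/5*+INA over Col by 0.25, *PLDZ2* and *SRG3* alone passed. Over all genes, the same factors changed the calls for *hac1/5*+INA over Col to 2715 higher and 2651 lower, compared with 3604 higher and 2098 lower without them.

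The INA response of wild type was measured by Col+INA over Col, which shares the Col+INA library with the contrast that chose the genes. With INA, *SQD1* of wild type was 2.10-fold lower (CI 1.98 to 2.22), *SQD2* 2.60-fold lower (CI 2.42 to 2.80) and *MGD2* 2.63-fold lower (CI 2.13 to 3.26). These 3 of the 10 genes were called lower, where 14.1% of 14325 genes were, and 0 were called higher, where 22.1% of all genes were. The contrast that chose the genes favours ones with low reads in Col+INA, and so lower ratios here. For this reason, nothing is read from the difference to all genes. *DGD1* came close to the limit, at 1.91-fold lower (CI 1.75 to 2.09), and passed it with TMM or DESeq2 library factors (log2 ratio -1.07 and -1.09). *DGD2* went the other way, 1.89-fold higher in Col+INA (CI 1.56 to 2.30). *PLDZ2* was 1.37-fold lower (CI 1.07 to 1.75), and *SRG3* differed by no more than counting error (ratio 0.92, CI 0.82 to 1.04). *NPC4*, with 3 reads in Col+INA and 14 in Col, averaged under 10 reads, with a ratio of 0.21 (CI 0.04 to 0.74). Of the 4 leaf markers, *LHCB1.1* was 2.68-fold and *LHCB1.3* 3.77-fold lower in Col+INA than in Col. *RBCS1A* was 1.42-fold and *RCA* 1.27-fold lower. Whether the lipid genes fell together with the light-harvesting genes for a shared reason was not tested.

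The comparison of *npr1-1*+INA with Col shares no library with the contrast that chose the genes, although genotype and INA differ together in it. In that comparison *MGD2* was 3.42-fold lower in *npr1-1*+INA (CI 2.70 to 4.37), *SRG3* 2.79-fold lower (CI 2.37 to 3.28), *PLDZ2* 2.73-fold lower (CI 1.99 to 3.78) and *SQD2* 2.48-fold lower (CI 2.30 to 2.67). Of the 8 genes with enough reads, these 4 were called lower, where 3.95% of 13945 genes were, and none was called higher, where 7.76% were. The choice of genes favours low reads in Col+INA, and *npr1-1*+INA was treated with INA too. Even without a shared library, genes that INA lowers may thus be favoured, so the difference to all genes is a description only. *SQD1* was 1.81-fold lower (CI 1.71 to 1.91) and *DGD1* 1.47-fold lower (CI 1.35 to 1.60), while *DGD2* did not differ beyond counting error, and the CI of *NPC4* (ratio 0.81, 0.33 to 1.92) included 1. *SQD1* ranked low among all genes despite missing the limit, with 748 of 13945 genes having a smaller ratio. Only 107 genes had a smaller ratio than *MGD2* and 209 than *SRG3*.

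*npr1-1*+INA was also set against Col+INA, a library of the contrast that chose the genes. *SRG3* was 2.57-fold lower in *npr1-1*+INA (CI 2.18 to 3.03). It was the only gene called of the 7 with enough reads, whereas 20.4% of 14501 genes were called lower and 17.5% higher. Low reads in Col+INA, which the choice of genes favours, raise the ratios here. The difference to all genes is therefore a description only. *PLDZ2* was 1.99-fold lower (CI 1.44 to 2.80) and *DGD2* 1.81-fold lower (CI 1.49 to 2.20). *SQD1* was 1.16-fold higher (CI 1.09 to 1.24) and *DGD1* was higher by a log2 ratio of 0.38 (fold CI 1.18 to 1.43), differences beyond counting error and short of 2-fold. *MGD2*, with 90 reads in *npr1-1*+INA and 125 in Col+INA, could not be told apart by counting error (ratio 0.77, CI 0.58 to 1.02). *NPC4*, with 11 reads in *npr1-1*+INA and 3 in Col+INA, went the opposite way to *SRG3* (ratio 3.91, CI 1.03 to 21.8) but averaged under 10 reads.

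**Figure D3:**
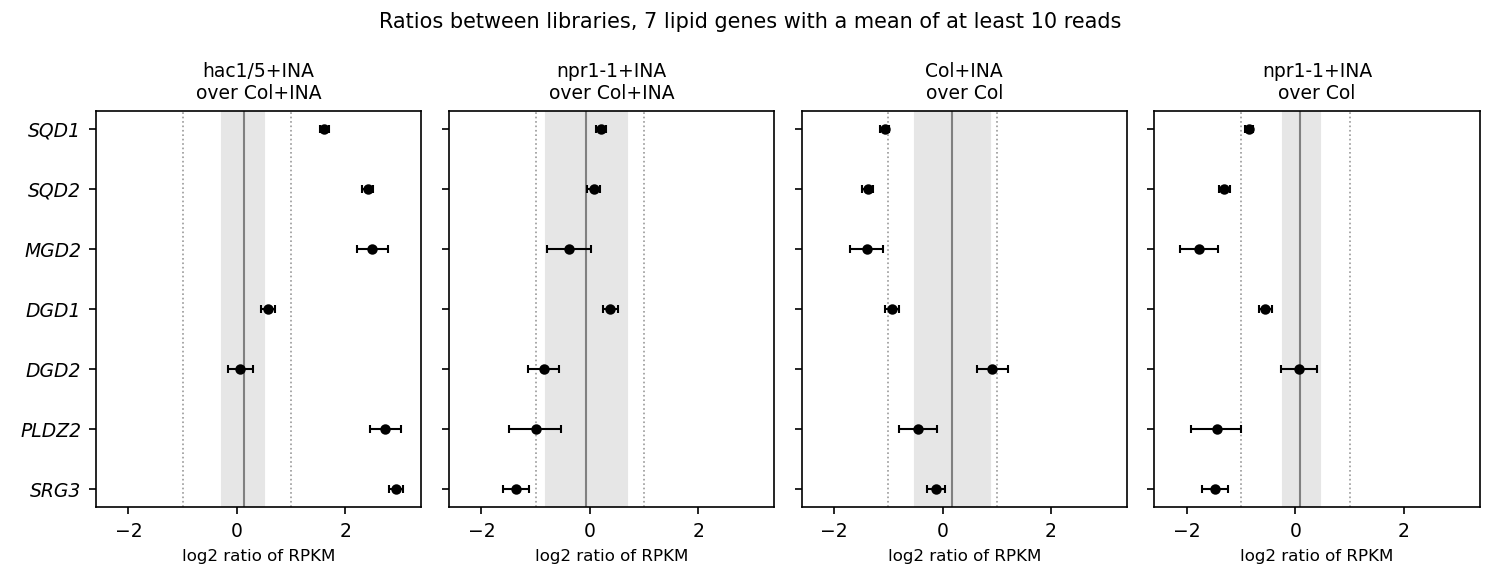
Log2 ratio of RPKM (points) with its CI for counting error (bars) for the 7 genes with enough reads in all 4 comparisons shown. *NPC4*, which had enough reads only in *npr1-1*+INA over Col among these, is left out. The solid line is the median of all genes, the grey band their interquartile range, and dotted lines mark 2-fold; *DGD2* is the only gene above the band in Col+INA over Col, and *MGD2* lies lowest in *npr1-1*+INA over Col, at -1.77.

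Among the 7 genes, those with the widest range between libraries were *SRG3*, *PLDZ2* and *MGD2*, and those with the narrowest were *DGD1* and *DGD2*. As RPKM, *SRG3* (391) stood beside *SQD2* (393) in *hac1/5*+INA, while in *npr1-1*+INA it was, at 19.97, below *DGD1* (51.7). In each library the order among *SQD1*, *SQD2* and *DGD1* was the same. *MGD2* was above *DGD2* in *hac1/5*+INA (55.0 and 24.1 RPKM) and in Col (25.6 and 12.2 RPKM), and below it in *npr1-1*+INA (7.47 and 12.8 RPKM) and in Col+INA (9.73 and 23.1 RPKM).
The level of genes with several gene models is uncertain: the 3272 genes with more than 1 listed model had a median of 23.0 reads per kb over the 4 libraries, and the 18911 genes with 1 model had 142.3. *MGD3* and *DGD1* have 2 listed models each, and the models not used here held at most 1 read per library.

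In a list of 15, which holds further galactolipid and sulfolipid enzymes, non-specific phospholipases C, glycerophosphodiester phosphodiesterases and phosphatidate phosphatases, 5 of 12 with enough reads were at least 2-fold higher in *hac1/5*+INA than in Col+INA and 0 lower (background 7.79% and 9.52%). Since this contrast chose the 10 genes and the list was set up with earlier results known, nothing is read from the difference. The 3 with the largest ratios were *GDPD6*, with 25 reads in *hac1/5*+INA against 3 in Col+INA, *NPC2*, with 135 and 29, and *UGP3*, which supplies UDP-glucose for the sulfolipid in the chloroplast, with 2751 and 775. *GDPD6* (CI of the ratio 2.62 to 44.4) and *PAH2*, with 17 and 8 reads, are among the 5 and passed the minimum of reads only through *hac1/5*+INA. *UGP3* had 1550 reads in *npr1-1*+INA and 1851 in Col, so its low library was Col+INA. *MGD1*, the main monogalactosyldiacylglycerol synthase, had 29 reads in *hac1/5*+INA, 35 in *npr1-1*+INA, 12 in Col+INA and 28 in Col. It is also among the 5 (CI of the ratio 1.23 to 5.35). Its only listed gene model was AT4G31780.2, so reads on any other model would be missed, and its low level is uncertain. *PLDZ1*, the closest relative of *PLDZ2*, had 561, 179, 461 and 227 reads in the same order, and its log2 ratio of *hac1/5*+INA over Col+INA was 0.32, against 2.73 for *PLDZ2*. *NPC3*, next to *NPC4*, went the other way, with 80 reads in *hac1/5*+INA against 156 for Col+INA, a 1.89-fold lower level (CI 1.44 to 2.51).
Of 12 phospholipid synthesis genes with enough reads, 0 were at least 2-fold higher in *hac1/5*+INA than in Col+INA and 1 was lower. That gene was *NMT3*, a methyltransferase on the route to phosphatidylcholine, with 27 and 170 reads. Of 9 genes of chloroplast lipid assembly and desaturation, 0 passed in either direction.

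Genes of the phosphate starvation response had ratios on both sides of 1. Of 18 with enough reads, 12 were at least 2-fold higher in *hac1/5*+INA than in Col+INA and 2 were lower (background 7.79% and 9.52%), with a median log2 ratio of 1.27. This contrast chose the 10 lipid genes, and the list was set up with earlier results of these data known. Nothing is therefore read from the difference to all genes. The largest ratios were those of *SPX3*, with 63 and 2 reads, *IPS1*, with 27 and 1, and *PPsPase1*, a pyrophosphatase, with 2713 and 123. *SPX3* and *IPS1* reached an average of 10 reads only through *hac1/5*+INA, so that they could be counted only as higher, and the ratio of *SPX3* has a CI of 8.61 to 274 and that of *IPS1* one of 4.58 to 1138. *PHR1* itself had 727 reads in *hac1/5*+INA, 489 in *npr1-1*+INA, 572 in Col+INA and 645 in Col, and its ratio of *hac1/5*+INA to Col+INA was 1.31 (CI 1.17 to 1.46). The lower genes, named after their values were seen, were *PHO1*, which loads phosphate into the xylem, with 42 and 432 reads, and *RNS1*, with 2 and 23, which in turn passed the minimum only through Col+INA. In *npr1-1*+INA over Col, 5 of 14 genes of this list with enough reads were at least 2-fold lower and 0 higher (background 3.95% and 7.76%), with a median log2 ratio of -0.66 against 0.09 over all genes. That difference is a description only as well. Of this list, 16 of 21 genes held P1BS words within 1000 bases, against 19.9% of all genes. The 5 without were *PHO1* and *RNS1*, but also *PHR1*, *PHL1* and *G3Pp1*, the last of which was among the 12 higher genes (3926 and 1872 reads). The other higher genes held words, but so did genes within 2-fold in *hac1/5*+INA over Col+INA. These were *PAP10* (log2 ratio 0.02), *PHT1;5* (0.04) and *SPX4* (0.52). Whether the words bear on the direction was not tested. With RefSeq starts, 12 of 21 genes of the list held a word within 1000 bases, against 20.4% of all genes.

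**Figure D4:**
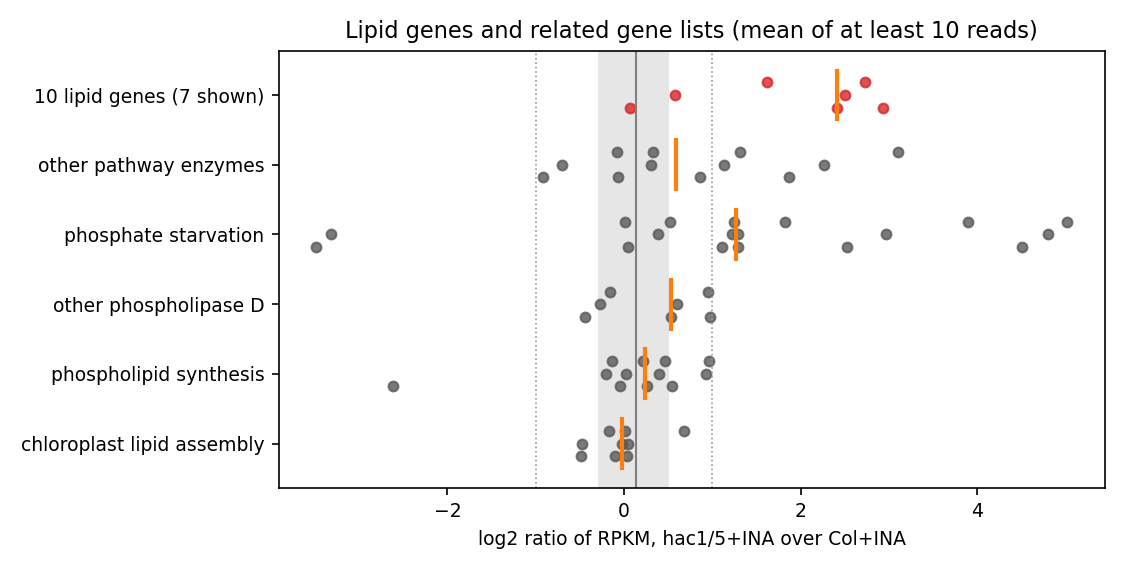
Log2 ratio of RPKM of *hac1/5*+INA over Col+INA for single genes (points) of 6 lists, with the median of each list as a vertical orange bar. The solid line and grey band give the median and interquartile range of all genes, and dotted lines mark 2-fold; the lipid genes and the phosphate starvation genes have medians of 2.41 and 1.27, and the chloroplast lipid assembly genes one of -0.03.

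The profile over the 4 libraries that was most like the median of the 7 genes, by Euclidean distance between log2 RPKM centred on each gene's mean, was that of *PAP12* (AT2G27190, distance 0.27), a purple acid phosphatase. *PAP12* had 808 reads in *hac1/5*+INA, 172 in *npr1-1*+INA, 250 in Col+INA and 443 in Col. It was closer to that median than any of the 7 genes themselves, of which *SQD2* was nearest (0.42) and *DGD2* farthest (1.67). The next among 9952 genes were *HHP4* (AT4G37680, 0.54), AT5G53048 (0.55), *PGP21* (AT3G62150, 0.57) and AT3G59300 (0.65). With 4 libraries, such a distance is a description only.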

How the data were processed

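Leaf RNA-seq of 4 of the 6 conditions was used. Reads were aligned by the authors with SOAPaligner/soap2, to TAIR10 (build per the labels), and the authors deposited 3 tables, each with 2 libraries, holding whole-number counts of reads per gene model. The deposited RPKM values are these counts per kb, scaled to all reads on gene models, with 0.001 in place of 0. Recomputed RPKM differed by at most 5.8e-08 on the log2 scale. The deposited gene model length, another column, was used for this. Columns with the authors' ratios, p-values and FDR were not used, and 0 columns of values belonged to no sample. Versions of the aligner are not given in the sources used here.

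Tables were joined by gene model (25931 models), and a gene was represented by the model with the most reads. Genes were called at a log2 ratio of 1 or more, or of -1 or less, if their reads in both libraries averaged 10 or more, and 0 reads were set to 3. Every comparison was computed over all genes. The calls and intervals were tested on simulated data. Named genes were all 10 genes, the 3 with the largest ratio of each related list, the closest paralogs, *PHR1*, and the 5 genes with the nearest profile among those with a mean of at least 50 reads. The genes, lists and rules were chosen with earlier results of these data known. Alternatives were TMM (edgeR) and DESeq2 library factors, log2(RPKM + 1), other read minimums, summed gene models, a threshold of 1.5, and an FDR of at most 0.01 from an exact binomial test. Library factors, the sole use of these packages, came from DESeq2 1.42.0 and edgeR 4.0.16 under R 4.3.3. All else ran in Python 3.11.15 with SciPy 1.17.1, pandas 2.3.3, matplotlib 3.10.9 and numpy 2.4.6.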

Additional observations from a re-analysis of the deposited data

Results flagged for a closer look

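In *SRG3* and *PLDZ2*, both INA-treated mutant libraries differed from the Col+INA library beyond counting error and in opposite directions. *SRG3* had a log2 ratio of 2.93 for *hac1/5*+INA over Col+INA and of -1.36 for *npr1-1*+INA over Col+INA. *PLDZ2* had log2 ratios of 2.73 and -0.996 in the same comparisons. With 1 library per condition, the difference between the mutants was not tested, and both ratios share the Col+INA library.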

How the results depend on the processing

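Across 80 counts of called genes under the alternatives, 71 stayed within 1.5 times of the value in the report. For *hac1/5*+INA over Col, 2 genes (*PLDZ2* and *SRG3*) in place of 4 were called higher with TMM factors, DESeq2 factors or a threshold of 1.5, and with either set of factors 1 gene (*NPC4*, 8 and 14 reads) in place of 0 was called lower. With the threshold of 1.5, 0 in place of 3 genes were called lower in Col+INA over Col, 1 (*MGD2*) in place of 4 in *npr1-1*+INA over Col, and 0 in place of 1 in *npr1-1*+INA over Col+INA. Without a minimum of reads, 1 gene (*NPC4*, 11 and 3 reads) in place of 0 was called higher in *npr1-1*+INA over Col+INA. The 80 counts include ones that were 0 and stayed 0, and those for *hac1/5*+INA over Col+INA. That contrast chose the genes, so its counts say nothing about stability. Of 164 log2 ratios of single genes, 24 left their counting interval, and 0 called ones changed sign. TMM factors shifted all log2 ratios by -0.11 in *hac1/5*+INA over Col+INA, -0.14 in Col+INA over Col and -0.09 in *npr1-1*+INA over Col. No paired analysis was possible because each condition has 1 library, which also left no replicate to leave out. Depth limits *MGD3*, *NPC4* and *NPC5*, since 3 reads correspond to 0.448 CPM in the smallest library.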

Other observations

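In the phospholipase D family, 2 genes picked after their values were seen had another order of libraries than *PLDZ2*. *PLDGAMMA1* had 1148 reads in *hac1/5*+INA, 135 in *npr1-1*+INA, 603 in Col+INA and 84 in Col, and *PLDGAMMA3* had 548, 103, 390 and 65 in the same order. Both were high in the INA-treated libraries other than *npr1-1*+INA. *PLDZ1* and *PLDZ2* are left out of the counts that follow. Of 8 other genes of this family with enough reads, 4 were at least 2-fold higher in Col+INA over Col and 2 lower (background 22.1% and 14.1%). *PLDEPSILON*, among the lower ones, was at the limit (log2 ratio -1.0006). Of 7 such genes with enough reads 0 passed in *hac1/5*+INA over Col+INA. The plastid desaturase gene *FAD5*, also picked after its values were seen, had 2750 reads in *hac1/5*+INA, 5817 in *npr1-1*+INA, 3038 in Col+INA and 5438 in Col, so that, unlike *SQD1* and *SQD2*, it was low in *hac1/5*+INA as in Col+INA. *FAD7*, with 3457, 7065, 4002 and 6342 reads, had the same order.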
